A study of Mus musculus with 12 samples.

Results

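CD115-positive cells of the peripheral blood were compared with CD115-positive cells of the spleen, both taken 24 h after removal of 70% of the liver. The comparison was chosen by the sample titles, 3 libraries of blood monocytes against 3 libraries of spleen monocytes, which are 6 of the 12 RNA-seq libraries of the series. The other 6 come from blood and spleen of mice with an intact liver and are used here only to ask whether a tissue difference was also present without surgery. Of 37619 gene symbols in the summed tables, 15680 were expressed at a level that could be tested, and with 4455 further transcripts that carry no symbol this gave 20135 features.

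All groups were male C57BL/6 mice whose spleen was in place. The resected groups had been operated under isoflurane and given meloxicam, and the intact groups had spleen and liver left whole. The labels call the control mice intact, whereas the methods of the study describe controls with a whole liver as sham-operated. Which of these holds for the mice of these libraries could not be settled, and if they had no operation, the loss of liver mass and the operation as such cannot be told apart. Each library held cells of 5 pooled mice, and an age was not given in the sources used here. Blood cells were prepared by density gradient before the magnetic sorting for CD115, and splenic cells went through both steps as well. Spleens were in addition broken up mechanically, digested with collagenase and freed of red cells by lysis, so the tissue and its preparation cannot be told apart.

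CD115 is the receptor for the growth factor CSF1, encoded by Csf1r, and magnetic beads against it are used to enrich monocytes. Monocytes circulate in blood and are also stored in the spleen, in a classical form that carries Ccr2 and Ly6C and enters inflamed tissue, and in a nonclassical form that carries Cx3cr1 and patrols vessels. Tissue macrophages carry CD115 as well, among them the red pulp macrophages of the spleen, which recycle iron from red cells, and the large macrophages of the peritoneal cavity, which depend on the transcription factor GATA6. After liver resection, monocytes and macrophages are known as a source of cytokines, chemokines and growth factors.

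The blood libraries held 43283271 to 46401368 estimated counts and the splenic libraries 36990033 to 42174039. Haemoglobin genes took 16.6% to 34.2% of a blood library and 0.795% to 3.47% of a splenic library. Levels are given as CPM, estimated counts divided by a library size scaled with TMM factors, which ran from 0.661 to 0.780 in blood and stood at 1.14 in spleen. The third library of each tissue stood apart in neutrophil genes, whose levels summed to 4848, 6183 and 25820.0 CPM in blood and 6922, 6316 and 18050.0 CPM in spleen, libraries 1, 2 and 3 in that order. Splenic library 3 also stood apart in the summed level of the large peritoneal macrophage list, in large part through Saa3. It stood apart in genes of red pulp macrophages too, and both are given beside those results. A gene was called when edgeR's quasi-likelihood test gave a Benjamini-Hochberg adjusted p-value under 0.05 over all features tested and the log2 fold change, blood minus spleen, was above 1 or below -1. Each value below is given for libraries 1, 2 and 3 in that order, and log2 fold changes come with their standard error (SE). The labels do not say whether replicates were prepared independently, so p-values measure the spread between these libraries only.

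The tissues differed in a large part of the transcriptome. Of the 20135 features, 2648 were called, which is 13.2%. Of these 1264 (6.28% of the features) were higher in blood and 1384 (6.87%) were lower, and 2406 of the called features carry a symbol. The difference exceeded 10-fold for 369 features higher and 402 features lower in blood. The libraries of both tissues did not overlap for 8529 features (42.4%) and for 2611 of the called ones. In 100 features called higher and 231 called lower, every library of the other tissue held 3 counts or fewer, where a fold change is only a lower bound. The median log2 fold change over all features was -0.14, and -0.03 when the libraries were scaled with RLE factors. The balance of directions turned with the scaling, to 1429 higher and 1133 lower with RLE factors and 1437 higher and 1108 lower with haemoglobin genes left out, and more features were higher than lower in each of the 12 fits without 1 library.

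These counts depended on single libraries. Without splenic library 2 or 1 the number called was 1450 or 1579, and without blood library 2 or 3 it was 1551 or 1607. The number lower in blood was the less stable direction. It was 601, 714, 635, 647 and 758 without splenic library 2, splenic library 1 or blood library 3, 2 or 1, and 876 or 891 without library 2 or 1 of intact spleen, whose group shares in the estimate of the spread. The number higher in blood stayed between 849 and 1814.

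**Figure D1:**
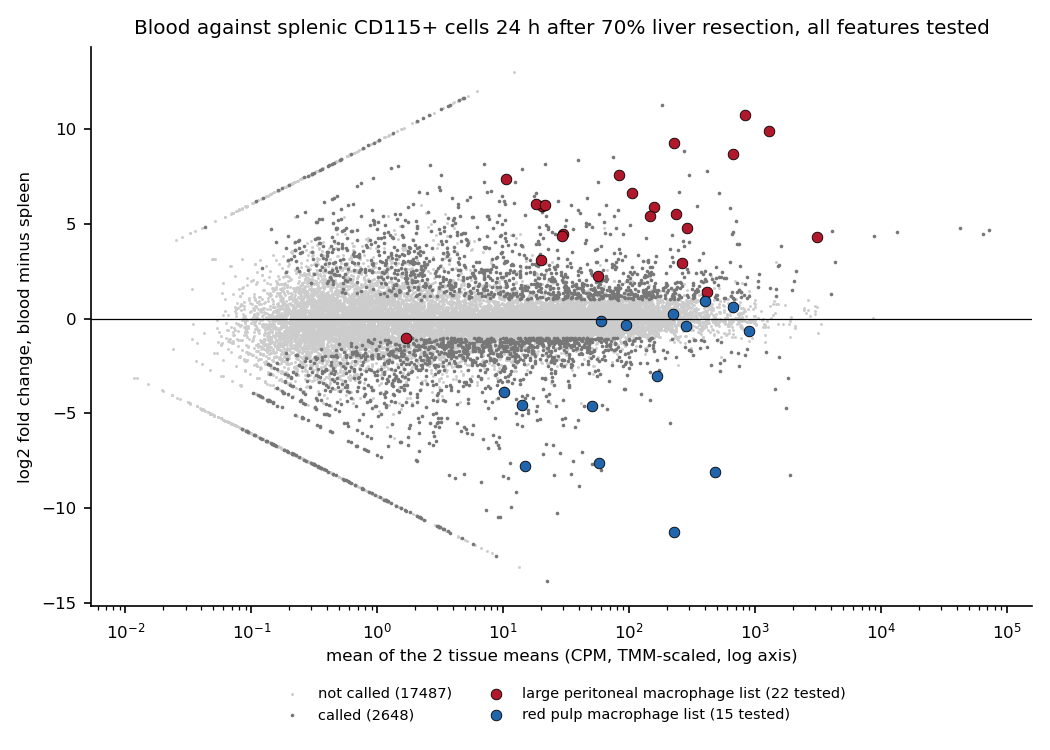
Log2 fold change, blood minus spleen, against the mean level (CPM, log axis) for the 20135 features tested, 1 point a feature. Called features are dark grey, members of the large peritoneal macrophage list are red and members of the red pulp macrophage list are blue, and 18 red points were called higher in blood and 8 blue points lower.

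The receptor used for the selection was present in both tissues at similar levels. Csf1r stood at 601, 678 and 719 CPM in blood and 915, 1192 and 587 CPM in spleen. The ranges overlapped and the difference was not called (log2 fold change -0.43, SE 0.32, adjusted p = 0.369).

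Markers of classical monocytes that were called were higher in blood, and those of nonclassical monocytes were called in both directions. Of 12 classical markers tested, 5 were called higher in blood and 0 lower, with a median log2 fold change of 1.55. The 5 were Ccr2, the receptor for CCL2, F13a1, the coagulation factor XIII A chain, Lyz2, lysozyme, S100a4 and Fn1, fibronectin. Fn1 stood at 13799, 17085 and 19748 CPM in blood and 328, 319 and 1792 CPM in spleen. It made up most of the summed level of the list in blood, which was 25620, 30180 and 32830 CPM. Which cells carried these transcripts was not tested. In intact mice the median log2 fold change of the list was -0.08. Lyz2 stood at 8351, 9044 and 5543 CPM in blood and 708, 1337 and 820.0 CPM in spleen (log2 fold change 3.00, SE 0.40, adjusted p = 0.00148). Ccr2 stood at 333, 357 and 231 CPM in blood and 59.7, 96.8 and 91.8 CPM in spleen, without overlap (log2 fold change 1.89, SE 0.45, adjusted p = 0.0176). Its call was lost without splenic library 1 or blood library 2, and with either left out 3 of the 12 markers were called. With the replicate number as a block, 8 were called. Plac8 and Ly6c2, further classical markers, lie outside the naming rule and were chosen after their values were seen. Plac8 had a log2 fold change of 0.50 and Ly6c2, which encodes Ly6C, of -1.09, and neither was called.

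Among 13 nonclassical markers, Cd300ld was called higher in blood, at 46.6, 63.8 and 43.9 CPM against 8.97, 8.41 and 12.5 CPM (log2 fold change 2.37, SE 0.28, adjusted p = 0.00094). Nr4a1, Treml4 and Ear2 were called lower in blood, but none of these 3 kept its call without splenic library 1, splenic library 2, blood library 1 or blood library 2, or with the replicate block, and 1 did without blood library 3. Cx3cr1, the fractalkine receptor that defines this subset, stood at 11.2, 10.2 and 5.26 CPM in blood and 4.11, 4.83 and 3.05 CPM in spleen (log2 fold change 1.15, SE 0.51, adjusted p = 0.145). Its ranges did not overlap and it was not called. The summed level of the nonclassical list was 845, 1080 and 1183 CPM in blood and 2761, 2101 and 1595 CPM in spleen.

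The clearest group of genes higher in blood was that of large peritoneal macrophages, cells of the abdominal cavity and not of the circulation. The list was drawn up with earlier results of these data known. It includes Alox15, C4b, Fgfr1 and Itga6, the 4 genes given with the comparison, so its counts are a description and not a test. All 22 listed genes were tested, and 18 were called higher in blood and 0 lower, with a median log2 fold change of 5.71 beside -0.14 over all features. Leaving out any 1 library gave 18 to 21 calls. The summed level of the list was 12730.0, 15000.0 and 18300.0 CPM in blood and 281, 232 and 1516 CPM in spleen. Splenic library 3 thus held more than the other splenic libraries and less than every blood library. Much of its sum was Saa3, given below. Of the splenic libraries, library 3 was the lowest for Alox15, Serpinb2, Bcam and Tgfb2 and the highest for C4b and Fgfr1. Genes that define a tissue macrophage were thus abundant in the blood libraries, which goes against a label of monocytes alone. Genes of mesothelium, the lining of the abdominal cavity, were higher in the same blood libraries, as given further on. How the blood was drawn is not given in the sources used here, and whether it met the fluid or cells of the cavity was not tested for this or any other group of genes higher in blood. In bulk RNA, more cells of a type and more RNA per cell cannot be told apart.

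Prg4, which encodes the lubricating proteoglycan lubricin, was at 1723, 1613 and 1655 CPM in blood and 0.771, 1.20 and 0.959 CPM in spleen. All blood libraries lay far above all splenic libraries (log2 fold change 10.73, SE 0.57, adjusted p = 2.68e-05). Alox15, the lipoxygenase that makes 12- and 15-hydroxylated fatty acids, was at 2759.8, 2949 and 2042 CPM in blood and 3.36, 3.27 and 1.47 CPM in spleen (log2 fold change 9.90, SE 0.81, adjusted p = 0.000182). C4b, complement component C4, was at 1308, 1364 and 1310.0 CPM in blood and 2.36, 3.36 and 3.93 CPM in spleen (log2 fold change 8.69, SE 0.90, adjusted p = 0.000571). The spread within each tissue was small beside the gap between them for all 3 genes.

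Receptors for matrix and growth factors belonged to the same group. Itga6, the integrin chain that binds laminin, stood at 446, 495 and 432 CPM in blood and 13.1, 6.81 and 9.76 CPM in spleen (log2 fold change 5.53, SE 0.32, adjusted p = 2.68e-05). Fgfr1, a receptor for fibroblast growth factors, stood at 301, 312 and 314 CPM in blood and 4.72, 4.83 and 6.24 CPM in spleen (log2 fold change 5.88, SE 0.35, adjusted p = 3.02e-05). Bcam, another laminin receptor, stood at 39.9, 44.2 and 35.6 CPM in blood and 0.607, 0.742 and 0.590 CPM in spleen (log2 fold change 5.94, SE 0.34, adjusted p = 2.68e-05). The blood libraries did not overlap the splenic libraries for any of them, and these calls held in every alternative that was run.

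Gata6, the transcription factor that sets the identity of these macrophages, was at 21.6, 23.7 and 17.7 CPM in blood and 0.163, 0.0655 and 0.147 CPM in spleen (log2 fold change 7.36, SE 0.75, adjusted p = 0.000512). It is named although the naming rule did not select it, because it defines the list. Serpinb2, an inhibitor of plasminogen activators, was at 288, 630.4 and 435 CPM in blood and 0.887, 0.786 and 0.516 CPM in spleen (log2 fold change 9.26, SE 0.52, adjusted p = 2.68e-05). Blood library 1 had the lowest value in blood, and still no library of the other tissue came near it. Selp, which encodes P-selectin, Timd4, a receptor for phosphatidylserine on dying cells, Tgfb2 and Naip1, a sensor of the inflammasome, were called with log2 fold changes of 5.41, 3.06, 6.02 and 4.37.

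Saa3, an acute-phase protein, was not called although its blood libraries stood at 3759.8, 5120.4 and 8776 CPM, and splenic library 3 held 847 CPM where the other splenic libraries held 36.2 and 19.0 CPM (log2 fold change 4.29, SE 1.72, adjusted p = 0.11). The other members not called were F10, Lrg1 and Apoc1, named here after their values were seen. Without splenic library 3, 21 of the 22 genes were called. In the 250 bases before the gene start, taken from RefSeq on assembly GRCm38.p6, the letters AGATAA of the site for GATA factors were found on either strand in 1 of 11 called genes of the list with a promoter sequence, Serpinb2, and in 7.94% of 12326 tested genes with one. The letters GAGGAA, a PU-box, were found in 3 of the 11 and in 26.7% of tested genes.

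**Figure D2:**
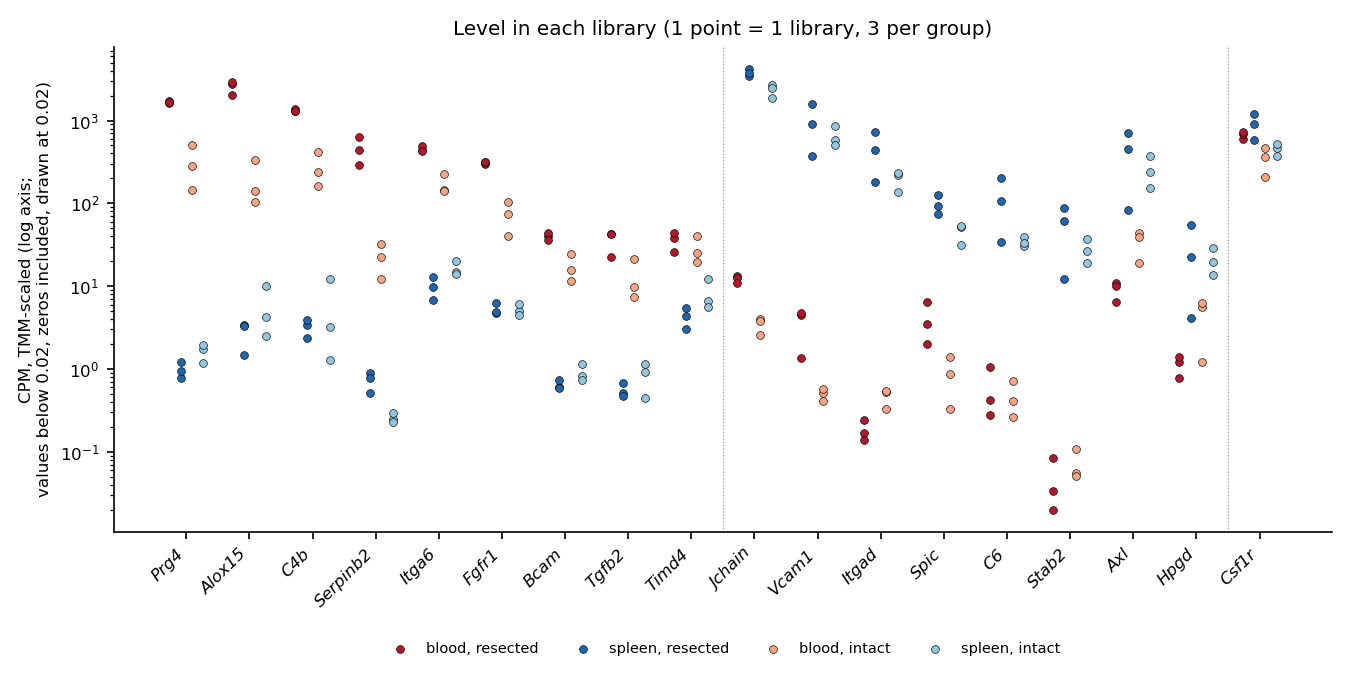
Level of 18 genes in each of the 12 libraries (CPM, log axis), 1 point a library and 3 a group, with values below 0.02 CPM drawn at 0.02. The 9 genes on the left were higher in every blood library after resection than in every splenic library, the 8 in the middle were lower, and Csf1r at the right overlapped.

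Genes of red pulp macrophages went the other way. Of 15 listed, 8 were called lower in blood and 0 higher, at a median log2 fold change of -3.02. A total of 7 or 8 were called with any 1 library left out. Itgad, the integrin chain CD11d, was at 0.244, 0.170 and 0.141 CPM in blood and 446, 725 and 183 CPM in spleen (log2 fold change -11.23, SE 0.68, adjusted p = 3.02e-05). Spic, the transcription factor these cells need, was at 1.98, 3.53 and 6.42 CPM in blood and 93.4, 126 and 75.0 CPM in spleen (log2 fold change -4.62, SE 0.56, adjusted p = 0.00106). No library of one tissue overlapped the other for either gene. Splenic library 3 was the lowest of the splenic libraries for both, as it was for most of the 8.

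Vcam1, an adhesion molecule that binds the integrin VLA-4, had 1.37, 4.48 and 4.78 CPM in blood and 916, 1572 and 377 CPM in spleen. C6, a component of the complement attack complex, had 0.427, 1.05 and 0.281 CPM in blood and 106, 200.1 and 34.6 CPM in spleen (log2 fold change -7.61, SE 0.78, adjusted p = 0.000562). Hpgd, the enzyme that inactivates prostaglandins, had 1.22, 1.39 and 0.788 CPM in blood and 22.7, 54.1 and 4.18 CPM in spleen (log2 fold change -4.57, SE 0.92, adjusted p = 0.00888). Slc40a1, which encodes the iron exporter ferroportin, was also called lower in blood (log2 fold change -3.02, SE 0.80, adjusted p = 0.0275), and this call was lost without splenic library 1 or 2, blood library 1 or 2 or intact splenic library 2, and with the replicate block. Epor and Pparg complete the 8 and, with Gclm, Cd163, Cd5l, Fcna, Mertk, Hmox1 and Trf, the 15.

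The 7 other members were not called, and are named here after their values were seen except for Hmox1. Hmox1, the enzyme that breaks down haem, stood at 565, 726 and 801 CPM in blood and 753, 1096 and 1389 CPM in spleen (log2 fold change -0.63, SE 0.32, adjusted p = 0.194). Cd163, the receptor for haemoglobin bound to haptoglobin, had a log2 fold change of 0.25, Cd5l of 0.95, and Trf, transferrin, of 0.63. Summed over the 15 genes, the level was 2636, 2916 and 2585 CPM in blood and 4300.0, 6414 and 2956 CPM in spleen. Of 5 called genes of the list with a promoter sequence, 2 held GAGGAA on either strand, Hpgd and Pparg, and 2 held AGATAA, C6 and Epor, beside the 26.7% and 7.94% of tested genes given above.

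Markers of other cell types also differed between the tissues, and their part in the results given here was not tested. Platelet genes were higher in blood, with 10 of 11 tested called and a median of 3.83. Pf4, platelet factor 4, was at 537, 643 and 611 CPM in blood and 1.19, 2.25 and 5.88 CPM in spleen (log2 fold change 7.59, SE 0.86, adjusted p = 0.000794), and Treml1 at 20.05, 17.9 and 14.1 CPM and 0.444, 0.524 and 0.565 CPM (log2 fold change 5.08, SE 0.54, adjusted p = 0.000624). The summed level of the platelet list was 948, 1022 and 945 CPM in blood and 80.0, 63.8 and 109 CPM in spleen.

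Genes of red cells split into 2 opposite groups. Haemoglobin transcripts and Alas2, the first enzyme of haem synthesis in red cells, were higher in blood, with log2 fold changes of 4.48 for Hba-a1, 4.66 for Hbb-bs and 4.62 for Alas2. The close sequence of the haemoglobin genes leaves the split between single members uncertain. Klf1, Rhag and Ermap, which are used by red cell precursors, were lower in blood. Klf1 stood at 0.763, 0.442 and 0.253 CPM in blood and 15.3, 93.6 and 38.2 CPM in spleen (log2 fold change -6.65, SE 0.87, adjusted p = 0.0014). The red cell list as a whole had 6 genes called higher and 3 lower of 14 tested.

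Genes of antibody-secreting cells were lower in blood, with 8 of 11 called and a median of -1.66. Jchain, the chain that joins polymeric antibodies, had the smallest p-value among all named genes and stood at 13.2, 12.6 and 11.01 CPM in blood and 3411, 4183 and 3699 CPM in spleen (log2 fold change -8.26, SE 0.29, adjusted p = 9.51e-07). Derl3, which clears misfolded proteins from the endoplasmic reticulum, stood at 3.42, 3.43 and 1.89 CPM in blood and 60.2, 52.7 and 56.0 CPM in spleen (log2 fold change -4.27, SE 0.26, adjusted p = 3.02e-05). Tnfrsf17, the BCMA receptor of plasma cells, was at 3 counts or fewer in every blood library and at least 49.6-fold lower in blood. The number called was 4 without blood library 2 and 5 without blood library 3 or splenic library 1.

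B-cell genes leaned the same way with less support. Of 12 tested, 4 were called lower in blood (Cr2, Fcer2a, Vpreb3 and Cxcr5), with a median of -1.28. The number was 0 without blood library 3, 1 without blood library 2 and 2 without blood library 1 or splenic library 1.

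T-cell genes were higher in blood, with 8 of 13 called and a median of 1.82. Tcf7 and Lef1, transcription factors of naive T cells, stood at 278, 305 and 171 CPM and 77.0, 77.0 and 55.1 CPM in blood and at 43.9, 14.7 and 31.8 CPM and 15.02, 5.17 and 13.3 CPM in spleen. They kept their calls in every alternative, Tcf7 with a log2 fold change of 3.06 (SE 0.57, adjusted p = 0.00634) and Lef1 with 2.64 (SE 0.54, adjusted p = 0.00933). The number of T-cell genes called was 2 without splenic library 2 or blood library 2, 3 without blood library 1, 4 without splenic library 1 and 5 without splenic library 3, and 3 with the replicate block.

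Transcripts of the lining of body cavities were detected at low levels in blood. Of 6 mesothelial genes tested, 5 were called higher in blood (Msln, Upk3b, Krt19, Lrrn4 and Upk1b), with a median of 4.28, which becomes 3.78 once genes at the limit of counting are held at their bound. The summed level of all 8 listed genes, those not tested included, was 7.57, 8.09 and 7.74 CPM in blood and 0.654, 0.830 and 0.590 CPM in spleen. The number called was 3 without splenic library 3, blood library 1 or blood library 3. Dcn, Col1a1, Col1a2 and Col3a1, genes of fibroblasts and matrix, were called higher in blood too, and Dcn stood at 8.51, 9.34 and 8.87 CPM in blood and 0.210, 0.240 and 0.172 CPM in spleen (log2 fold change 5.40, SE 0.68, adjusted p = 0.00123). Stab2, a scavenger receptor for hyaluronan, was at least 524-fold lower in blood, where every library held 3 counts or fewer, against 60.5, 87.6 and 12.2 CPM in spleen. Pdgfrb was the second stromal gene called lower, and it lost that call in 11 of the 12 fits without 1 library, which include every fit without a library of resected mice.

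Neutrophil genes did not separate the tissues, and the share called was near the 13.2% called over all features. Of 16 tested, 0 were called higher in blood and 2 lower, Camp and Ltf, which are made during granule formation, and both calls were lost without blood library 2 or 3, and that of Camp also without splenic library 2 or 3. S100a8 and S100a9, calcium-binding proteins of neutrophils and classical monocytes, had log2 fold changes of 0.39 and 0.12. Of 13 genes of conventional dendritic cells, 2 were called higher in blood, Clec10a and Mgl2, both lectins that macrophages also carry. Another 5 were called lower, of which 0 or 1 were called without splenic library 1 or 2 or any 1 of the blood libraries, and 3 with the replicate block. None of 6 eosinophil genes and none of 9 basophil and mast cell genes was called by edgeR, with 1 gene of each list at an unadjusted p under 0.05 and 1 and 0 called by DESeq2. Of the 9 hepatocyte genes listed, 0 reached a testable level, and their summed level was at most 0.244 CPM in the libraries of resected mice and reached 3.76 CPM in intact blood library 3.

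None of 14 proliferation genes was called by edgeR, although 12 had splenic libraries all above the blood libraries, with a median of -1.65. Over all features, the libraries of the tissues did not overlap for 42.4%. An unadjusted p under 0.05 was found for 6 of them, and DESeq2 called 1. Without blood library 3 of the intact mice, a group that shares in the estimate of the spread, 12 were called lower in blood, and 8 were when only the 6 libraries of resected mice were fitted.

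**Figure D3:**
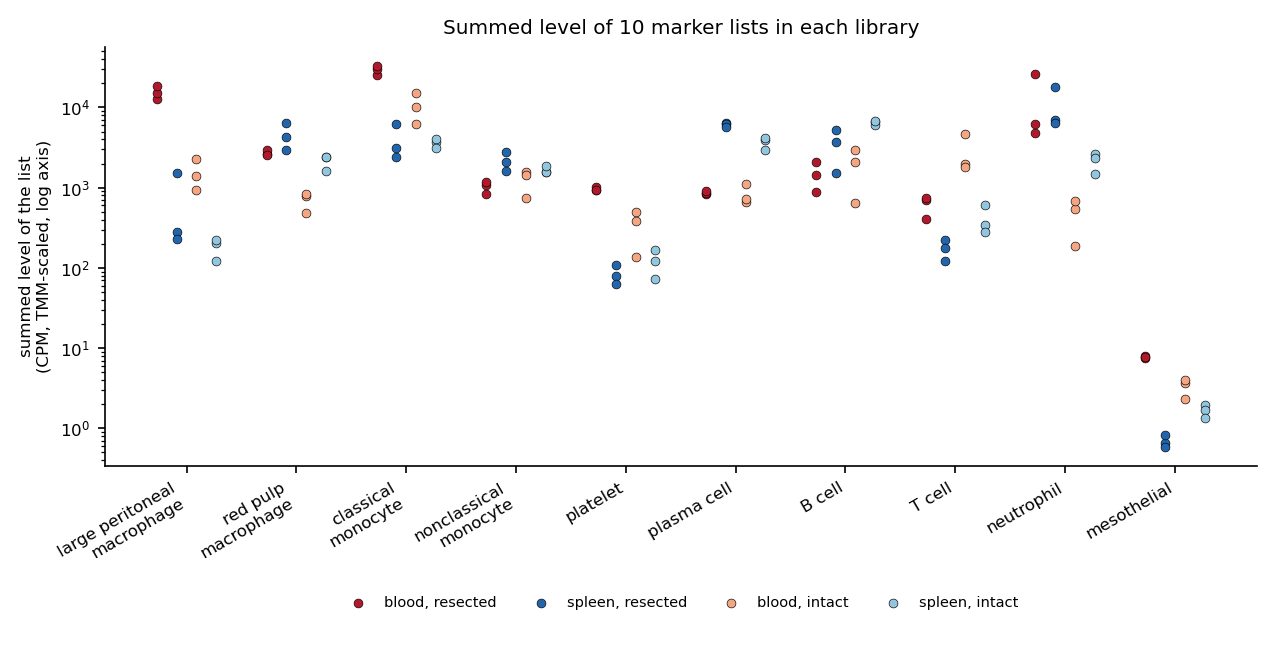
Summed level of 10 marker lists (CPM, log axis) in each of the 12 libraries, 1 point a library and 3 a group. After resection the sums of the large peritoneal macrophage, classical monocyte, platelet, T-cell and mesothelial lists were higher in every blood library than in every splenic library. Those of plasma cells, nonclassical monocytes and red pulp macrophages were lower, and those of neutrophil and B-cell genes overlapped.

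Chemokine ligands were the functional group with the largest number of genes higher in blood. The list shares Pf4 and Ppbp with the platelet list and Cxcl13 with the large peritoneal macrophage list. Of 27 tested, 17 were called higher and 1 lower, with a median of 2.76, and 14 to 17 were called higher with any 1 library left out. Cxcl1, which draws neutrophils through the receptor CXCR2, stood at 880.0, 2004 and 848 CPM in blood and 27.3, 11.6 and 26.5 CPM in spleen (log2 fold change 5.84, SE 0.54, adjusted p = 0.000361). Cxcl2 and Cxcl3, neighbours with the same receptor, lie outside the naming rule and were chosen after their values were seen. Cxcl2 stood at 1838, 4272 and 1846 CPM in blood and 240.1, 286 and 652 CPM in spleen (log2 fold change 2.76, SE 0.50, adjusted p = 0.00584). Cxcl3 stood at 110.3, 331 and 330.3 CPM in blood and 2.71, 2.95 and 35.6 CPM in spleen (log2 fold change 4.22, SE 0.97, adjusted p = 0.0156). Blood library 2 had the highest value of all 3 genes, and no splenic library reached a blood library.

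These 3 genes lie close together on chromosome 5, and the bases just upstream of each gene start, from RefSeq on assembly GRCm38.p6 and all on the plus strand, are shown because the genes were higher together. Capitals mark the letters GGAAATTCC, a form of the site bound by NF-kB, or their reverse complement.
Cxcl1 at chr5:90890995-90891244: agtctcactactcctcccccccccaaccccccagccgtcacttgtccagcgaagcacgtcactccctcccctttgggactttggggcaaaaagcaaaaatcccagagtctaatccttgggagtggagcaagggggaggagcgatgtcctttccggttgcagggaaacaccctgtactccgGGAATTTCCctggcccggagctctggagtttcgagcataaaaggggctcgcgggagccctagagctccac
Cxcl2 at chr5:90903649-90903898: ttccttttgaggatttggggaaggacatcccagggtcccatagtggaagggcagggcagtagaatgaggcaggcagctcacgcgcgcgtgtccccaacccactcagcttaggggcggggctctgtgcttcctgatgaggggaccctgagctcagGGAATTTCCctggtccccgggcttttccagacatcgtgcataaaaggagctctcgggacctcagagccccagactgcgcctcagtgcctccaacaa
Cxcl3 at chr5:90785851-90786100: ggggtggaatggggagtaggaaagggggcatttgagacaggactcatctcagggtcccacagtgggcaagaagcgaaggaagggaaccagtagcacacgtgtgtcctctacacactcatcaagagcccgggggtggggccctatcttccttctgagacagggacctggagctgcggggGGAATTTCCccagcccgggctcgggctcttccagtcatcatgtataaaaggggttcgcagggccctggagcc

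The letters were searched on both strands in the 250 bases before each gene start. They were found in 4 of the 12 called chemokine ligands that had a promoter sequence, the fourth being Cxcl10, and in 50 of 12326 tested genes with one, or 0.406%. Neighbours that arose by duplication share sequence, so the 3 matches are not independent. The letters TGAGTCA, an AP-1 site, were found in 1 of the 12 chemokine ligands, again Cxcl10, and in 4.21% of tested genes. Motifs and genes were chosen with the expression values known, and a match is a description of the sequence.

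Ccl7, a ligand of CCR2, was among the other chemokine ligands higher in blood. It stood at 13.8, 58.0 and 36.1 CPM in blood and 0.210, 0.327 and 0.541 CPM in spleen (log2 fold change 6.63, SE 0.76, adjusted p = 0.000826). Blood library 1 had the lowest and blood library 2 the highest value, and all 3 were above every splenic library. Cxcl16, a membrane-bound ligand that also takes up oxidised lipoprotein, had a log2 fold change of 2.06. The ligand called lower in blood was Cxcl9, which is induced by interferon gamma, at 0, 0.238 and 0.0281 CPM in blood and 2.45, 2.82 and 1.52 CPM in spleen (log2 fold change -4.67, SE 1.05, adjusted p = 0.0144). The Cxcl9 call was lost without blood library 3.

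Chemokine receptors were called in both directions. Of 23 tested, 3 were called higher in blood, Ccr2 and Ccrl2 among them, and 6 lower, Ccr3, Ccr7, Ccr10, Ccr1l1, Cxcr4 and Cxcr5, with a median of -0.11. Cxcr4, the receptor for CXCL12, stood at 372, 326 and 278 CPM in blood and 1341, 1128 and 926 CPM in spleen (log2 fold change -1.80, SE 0.29, adjusted p = 0.00339). Ccr3, the eotaxin receptor, stood at 0.946, 0.543 and 0.394 CPM in blood and 82.5, 156 and 12.3 CPM in spleen (log2 fold change -7.05, SE 0.92, adjusted p = 0.0014), and Ccr10 had a log2 fold change of -4.36.

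The ranges of the tissues did not overlap for Cxcr4, Ccr3 and Ccr10, which kept their calls in every alternative. Only 1 receptor was called higher without blood library 2, and 3 were called lower without splenic library 1, blood library 2 or blood library 3. Ccrl2, Ccr7 and Ccr1l1 lost their calls with the replicate block and in 3, 5 and 9 of the 12 fits without 1 library. How reads shared by close receptors such as Ccr1 and Ccr1l1 were counted is not given in the sources used here, so single members are uncertain. The gene Cxcr5 is also a B-cell gene.

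Adhesion genes included the integrin chains of both macrophage groups. Of 24 integrin genes tested, 7 were called higher in blood and 3 lower, with a median of 0.92. Itgb1, the chain that pairs with the laminin-, collagen- and fibronectin-binding chains, stood at 766, 850.0 and 776 CPM in blood and 147, 187 and 202 CPM in spleen (log2 fold change 2.16, SE 0.14, adjusted p = 5.78e-05). Itga2b, which platelets carry, had a log2 fold change of 3.59. The number called higher was 4 without splenic library 2. The number called lower was 1, Itgad, without splenic library 1 or 2 or any 1 of the blood libraries, and with the replicate block. Jam2, a junctional adhesion molecule, stood at 23.8, 28.2 and 21.3 CPM in blood and 0.0934, 0.131 and 0.270 CPM in spleen (log2 fold change 7.19, SE 0.57, adjusted p = 0.000136). Of 14 selectin genes and enzymes of their ligands, Selp was called higher and Chst15, a sulphotransferase, lower (log2 fold change -1.59, SE 0.24, adjusted p = 0.00263). The share called in this list was near the 13.2% called over all features.

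Complement and coagulation genes were higher in blood more often than lower. Of 25 complement genes, 8 were called higher and 4 lower, with a median of 1.09. This and other functional lists share members with the large peritoneal and red pulp macrophage lists, and such calls are counted in both. Among them are C4b and C6 here, Alox15 and Hpgd of the eicosanoid enzymes, Fgfr1 of the receptor kinases and Naip1 of the inflammasome genes. C1ra, a protease of the first complement complex, stood at 98.0, 121 and 114 CPM in blood and 8.17, 6.53 and 8.46 CPM in spleen (log2 fold change 3.85, SE 0.27, adjusted p = 7.45e-05). C3ar1, the receptor for the fragment C3a, stood at 64.1, 91.6 and 76.5 CPM in blood and 0.794, 0.830 and 2.83 CPM in spleen (log2 fold change 5.71, SE 0.63, adjusted p = 0.000753). C2 went the other way, at 2.14, 1.53 and 1.66 CPM in blood and 12.6, 12.3 and 12.7 CPM in spleen (log2 fold change -2.82, SE 0.33, adjusted p = 0.000853). The tissues did not overlap for these 3 genes. With the replicate block, 13 were called higher, and without blood library 3, 2 were called lower.

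Of 27 genes of coagulation and fibrinolysis, 14 were called higher in blood and 0 lower, with a median of 1.82 and 10 to 16 calls with any 1 library left out. Pros1, protein S, which restrains clotting and bridges dying cells to their receptors, stood at 142, 153 and 109.6 CPM in blood and 5.56, 4.34 and 8.43 CPM in spleen (log2 fold change 4.46, SE 0.44, adjusted p = 0.000469). Serpinb2 belongs to this list as well as to the peritoneal one. Platelet genes, given above, were higher in the same libraries, and their part in these calls was not tested.

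Enzymes of eicosanoid synthesis, which make leukotrienes and prostaglandins from arachidonic acid, divided between the tissues. Of 22 tested, 10 were called higher in blood and 4 lower, with a median of 0.85. Ltc4s, the synthase of leukotriene C4, stood at 115, 103 and 53.4 CPM in blood and 0.490, 0.611 and 2.19 CPM in spleen (log2 fold change 6.37, SE 0.70, adjusted p = 0.000698). Ptgis, prostacyclin synthase, stood at 90.8, 111 and 60.1 CPM in blood and 2.17, 4.91 and 0.934 CPM in spleen (log2 fold change 5.03, SE 0.64, adjusted p = 0.00132). The 4 lower in blood were Hpgd, Pla2g15, Hpgds, the synthase of prostaglandin D2 in blood cells, and Ephx2, which hydrolyses epoxides of fatty acids. Hpgds stood at 2.62, 2.17 and 3.41 CPM in blood and 61.0, 49.8 and 18.6 CPM in spleen (log2 fold change -3.98, SE 0.50, adjusted p = 0.00128). Without splenic library 1, 6 enzymes were called higher.

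Cytokines and growth factors with a role in liver repair included some of the largest differences. Of 34 tested, 11 were called higher in blood and 6 lower, with a median of 1.33. Il6, which starts the acute-phase response of hepatocytes, stood at 25.5, 129 and 79.6 CPM in blood and 0.304, 0.0873 and 0.320 CPM in spleen (log2 fold change 8.36, SE 0.87, adjusted p = 0.000571). Wnt2, a Wnt ligand, stood at 10.4, 11.4 and 4.98 CPM in blood, held no count in any splenic library and was at least 121-fold higher in blood. Tgfb2, a member of the TGF-beta family, stood at 42.7, 43.1 and 22.5 CPM in blood and 0.514, 0.677 and 0.467 CPM in spleen (log2 fold change 6.02, SE 0.56, adjusted p = 0.00038). The blood values of Il6 spread over a wide range, lowest in library 1, and stayed above the splenic values.

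Igf1, Vegfb and Il18 were lower in blood. Igf1, insulin-like growth factor 1, stood at 1.25, 0.951 and 1.04 CPM in blood and 26.6, 59.5 and 5.43 CPM in spleen (log2 fold change -4.81, SE 0.93, adjusted p = 0.0076). Vegfb stood at 3.97, 4.25 and 2.81 CPM in blood and 13.2, 19.4 and 10.9 CPM in spleen (log2 fold change -1.98, SE 0.29, adjusted p = 0.00219). Il18, a cytokine that the inflammasome activates, stood at 11.1, 10.02 and 10.6 CPM in blood and 53.9, 60.7 and 30.4 CPM in spleen (log2 fold change -2.19, SE 0.32, adjusted p = 0.00227). These 3 kept their calls in every alternative, whereas the number called lower was 3 without splenic library 1, splenic library 2, blood library 1 or blood library 2.

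Receptor tyrosine kinases, through which growth factors act, were divided. Of 27 tested, 4 were called higher in blood, Fgfr1, Egfr, Epha2 and Ephb4, and 7 lower, with a median of 0.20. Epha2, a receptor for ephrins, stood at 104, 153 and 93.4 CPM in blood and 21.8, 4.54 and 14.4 CPM in spleen (log2 fold change 3.11, SE 0.52, adjusted p = 0.00426). Axl, a receptor that takes part in the removal of dying cells, stood at 10.96, 10.1 and 6.50 CPM in blood and 453, 698 and 82.4 CPM in spleen (log2 fold change -5.48, SE 0.77, adjusted p = 0.002). Erbb2 stood at 0.0915, 0.136 and 0.141 CPM in blood and 3.85, 7.64 and 1.65 CPM in spleen (log2 fold change -5.12, SE 0.74, adjusted p = 0.00209).

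Axl and Erbb2 kept their calls in every alternative, but the number called lower did not. It was 2 without splenic library 2 or blood library 1, 3 without splenic library 1 or blood library 2 or 3, and 4 without splenic library 3, intact splenic library 1 or 3 or intact blood library 2, and with the replicate block. Without intact blood library 3, 7 were called higher.

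Genes for the removal of dying cells and for scavenging were higher in blood more often than lower. Of 27 clearance genes, 8 were called higher and 3 lower, with a median of 0.44. Anxa5, annexin A5, stood at 160.0, 198 and 200.3 CPM in blood and 80.2, 87.0 and 90.9 CPM in spleen (log2 fold change 1.11, SE 0.21, adjusted p = 0.00726). Of 18 scavenger receptor genes, 9 were called higher and 2 lower, Stab2 and Marco, with a median of 1.11. Scarb2, a lysosomal membrane protein, stood at 255, 276 and 364 CPM in blood and 79.5, 81.1 and 115 CPM in spleen (log2 fold change 1.70, SE 0.19, adjusted p = 0.000793). Marco, a receptor of marginal zone macrophages, stood at 3.42, 5.23 and 6.30 CPM in blood and 21.5, 5.07 and 321 CPM in spleen, so that its level in spleen rested on library 3, and its call was lost in 10 of the 12 fits without 1 library, that one included, and with the replicate block.

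Markers of alternative macrophage activation were called in 1 direction. Of 17 genes of arginine metabolism and alternative activation, 7 were higher in blood and 0 lower, with a median of 1.03. Retnla, which encodes RELM-alpha, stood at 588, 309 and 204 CPM in blood and 0, 0.109 and 0.344 CPM in spleen (log2 fold change 11.24, SE 1.23, adjusted p = 0.000698). Slc7a2, a transporter of arginine, stood at 40.5, 71.3 and 226 CPM in blood and 0.444, 0.415 and 1.47 CPM in spleen (log2 fold change 7.18, SE 0.94, adjusted p = 0.00147). Blood library 1 was the highest for Retnla and blood library 3 for Slc7a2, and no splenic library overlapped them. Clec10a, a lectin for galactose residues, stood at 40.8, 44.1 and 55.7 CPM in blood and 1.42, 2.12 and 2.38 CPM in spleen (log2 fold change 4.57, SE 0.32, adjusted p = 7.45e-05).

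Iron handling was not called in a common direction. Of 23 genes of haem and iron recycling, 4 were called higher in blood and 3 lower, with a median of 0.11. Tfrc, the transferrin receptor, stood at 45.8, 51.6 and 39.5 CPM in blood and 171, 471 and 264 CPM in spleen (log2 fold change -2.73, SE 0.50, adjusted p = 0.00598). Ftl1, the ferritin light chain, stood at 5709.6, 6216 and 5060.1 CPM in blood and 2049, 2544 and 2446 CPM in spleen (log2 fold change 1.27, SE 0.27, adjusted p = 0.0118). The number called higher was 1 without splenic library 1 and 2 without splenic library 2 or blood library 2 or 3.

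In the remaining functional lists the numbers called changed with single libraries. Over all features 13.2% were called, and the shares of the Toll-like receptor and interferon-stimulated lists were near that value. Those of the glycolysis, MHC class II, metalloproteinase, inflammasome and Fc receptor lists, both directions together, lay above it. Of 19 glycolysis genes, 5 were called higher in blood and 1 lower, and the number higher was 12 without splenic library 3, 2 without splenic library 1 or 2 and 3 without blood library 2 or 3 or intact splenic library 1 or 2. Hk2, hexokinase 2, kept its call (log2 fold change 2.22, SE 0.29, adjusted p = 0.00139), and the lower gene, Pfkm, lost its call in 9 of the 12 fits without 1 library. Of 15 MHC class II genes and their partners, 1 was higher, Cd80, and 3 lower, of which H2-Eb2 kept its call (log2 fold change -3.59, SE 0.56, adjusted p = 0.00282), and 1 was called lower without any 1 of splenic libraries 1 and 2 and the blood libraries. Of 22 Toll-like receptor genes, Tlr2 was higher (log2 fold change 1.90, SE 0.36, adjusted p = 0.00702) and Tlr9 and Tlr11 were lower. Without splenic library 3 or intact blood library 3, 6 were higher, and 2 in most other fits without 1 library. Tlr9 and Tlr11 lost their calls in 10 and 9 of the 12 fits without 1 library.

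Of 25 interferon-stimulated genes, 4 were called higher in blood and 0 lower, and 1 without splenic library 1 or 2, blood library 2 or 3 or intact splenic library 2, and 2 without intact splenic library 1 or with the replicate block. Among them Isg15 kept its call (log2 fold change 2.30, SE 0.44, adjusted p = 0.00726). Of 21 genes of metalloproteinases and their inhibitors, 6 were higher and 1 lower, and 2 or 3 were higher without splenic library 2, splenic library 1 or blood library 3. The lower gene, Mmp11, lost its call in 9 of the 12 fits without 1 library. Slpi, an inhibitor of leukocyte proteases, stood at 2410.4, 2923 and 2759 CPM in blood and 347, 399 and 395 CPM in spleen (log2 fold change 2.83, SE 0.24, adjusted p = 0.000235). Of 17 inflammasome genes, 4 were higher and 1, Il18, lower, and Pycard, the adaptor ASC, kept its call (log2 fold change 1.68, SE 0.34, adjusted p = 0.00946), while 2 were higher without splenic library 1, splenic library 2, blood library 2 or blood library 3. Of 15 Fc receptor genes, 2 were higher and 4 lower. The number higher was 0 without splenic library 2 and 1 without splenic library 1 or blood library 2 or 3. The number lower was 0 without splenic library 1 or blood library 2 or 3, 1 without splenic library 2 and 2 without blood library 1 or intact splenic library 1 or 2.

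Among the macrophage and lymphoid lists not yet described, 3 of 6 genes of Kupffer cells, the macrophages of liver, were higher in blood. Folr2, a folate receptor, stood at 34.1, 46.9 and 24.1 CPM in blood and 0.397, 0.284 and 0.516 CPM in spleen (log2 fold change 6.45, SE 0.86, adjusted p = 0.00154). Clec1b had a log2 fold change of 3.89 and Id3 of 1.10, and Id3 lost its call without blood library 1. The remaining Kupffer cell genes tested were not called. Of the 6, 2 had a negative log2 fold change, and DESeq2 called 1 lower in blood. Whether Kupffer cells were present was not tested. Of 7 genes of marginal zone macrophages, 3 were higher and 2 lower, and Nr1h3, the oxysterol receptor LXR-alpha, was lower at 2.78, 5.88 and 6.90 CPM against 64.3, 42.9 and 24.98 CPM (log2 fold change -3.09, SE 0.46, adjusted p = 0.00254). The other lower gene was Marco, whose call seldom held, as given above. The number higher was 1 without splenic library 1, splenic library 2, blood library 2 or blood library 3. Of 10 natural killer cell genes 1 was called higher, Gzma, which lost its call without splenic library 2 or blood library 1 or 2. The number was 2 without splenic library 1 or with the replicate block and 4 without intact blood library 3. Of 8 genes of plasmacytoid dendritic cells 1 was called lower, Ly6d, which lost its call in 9 of the 12 fits without 1 library. The shares called in the natural killer and plasmacytoid lists were near the 13.2% called over all features.

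**Figure D4:**
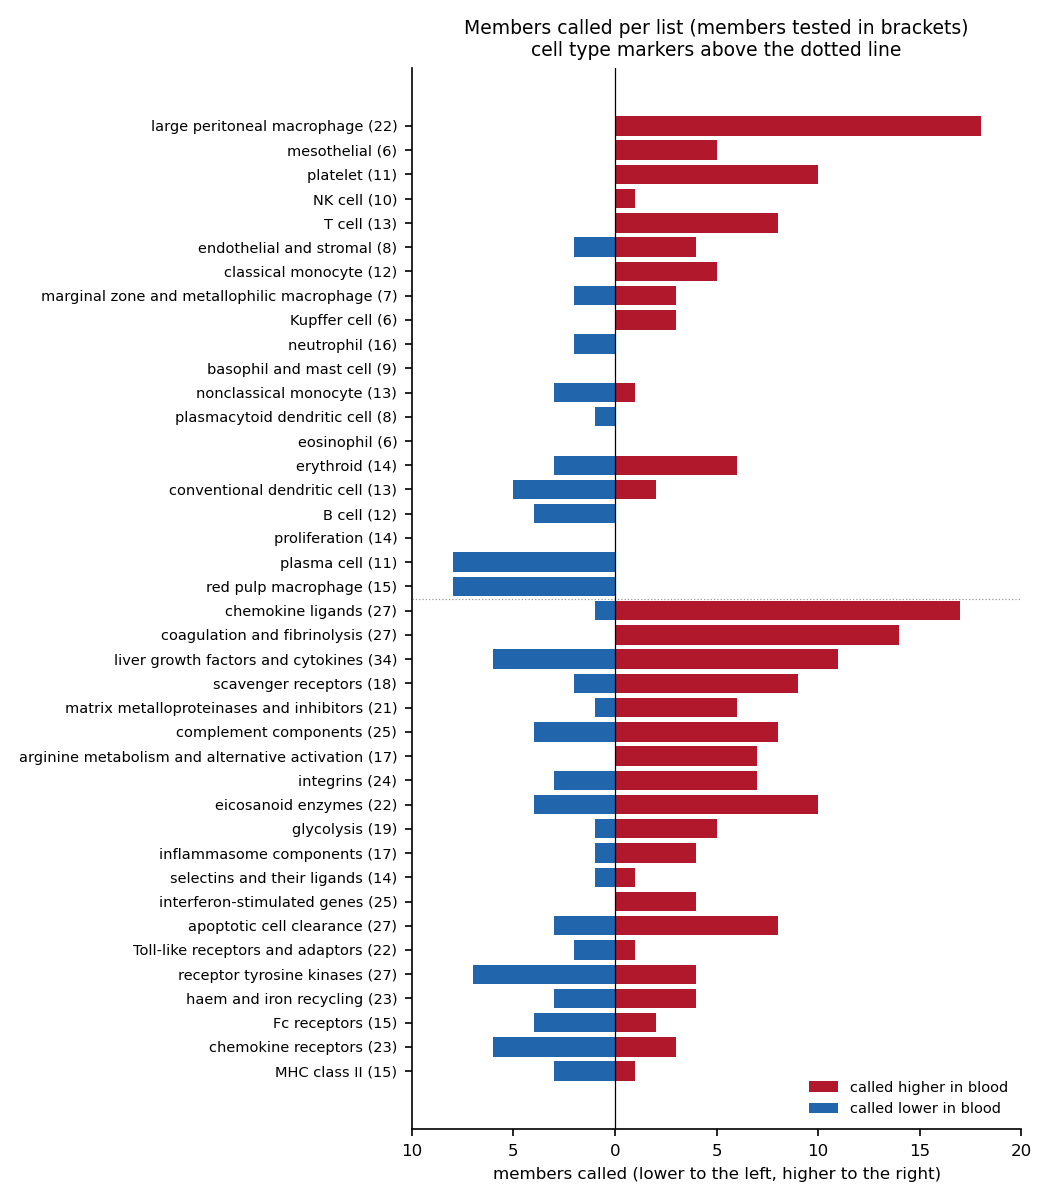
Number of members called higher in blood (red, to the right) and lower in blood (blue, to the left) for each of the 40 lists with a tested member, ordered by median log2 fold change within marker lists (top) and functional lists (bottom). The longest bars are the 18 large peritoneal macrophage genes and the 17 chemokine ligands called higher, and the 8 red pulp macrophage and 8 plasma cell genes called lower.

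Among the genes named for the smallest p-values outside the lists, 3 that were higher in blood follow. Rarb, a receptor for retinoic acid, stood at 21.0, 24.6 and 14.6 CPM in blood and 0.187, 0.393 and 0.221 CPM in spleen (log2 fold change 6.21, SE 0.42, adjusted p = 6.06e-05). Dpysl3, a protein that binds the cytoskeleton, stood at 22.3, 30.5 and 18.9 CPM in blood and 0.187, 0.327 and 0.541 CPM in spleen (log2 fold change 6.08, SE 0.44, adjusted p = 7.45e-05). Plod3, which hydroxylates lysine in collagen, stood at 461, 590.2 and 432 CPM in blood and 72.6, 77.1 and 89.7 CPM in spleen (log2 fold change 2.63, SE 0.19, adjusted p = 7.45e-05). All 3 were without overlap.

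Lower in blood were Slc45a3, a membrane transporter, Asb2, a subunit of a ubiquitin ligase, and Kcnj10, a potassium channel. Slc45a3 stood at 0.366, 0.306 and 0.704 CPM in blood and 125, 159.8 and 73.0 CPM in spleen (log2 fold change -8.00, SE 0.52, adjusted p = 5.78e-05). Asb2 stood at 0.122, 0.204 and 0.366 CPM in blood and 78.6, 90.4 and 38.1 CPM in spleen (log2 fold change -8.19, SE 0.60, adjusted p = 8.85e-05). Kcnj10 stood at 0.153, 0.204 and 0.169 CPM in blood and 98.9, 113 and 26.9 CPM in spleen (log2 fold change -8.81, SE 0.82, adjusted p = 0.00038). As with the red pulp list, splenic library 3 was the lowest of the splenic libraries for all 3. Sema6d, a semaphorin, Epb41l3, Eaf2, Tmem26 and Lag3, an inhibitory receptor, were called lower with log2 fold changes of -5.34, -5.27, -4.03, -5.36 and -3.67.

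Much of the tissue difference was also present in mice with an intact liver, whose libraries are separate from those of the resected mice. In intact mice 1480 features (7.35%) were called between blood and spleen. Of these 875 were also called after resection, which is 59.1% of those called in intact mice and 33.0% of those called after resection, and 862 of the 875 had the same direction. The large peritoneal macrophage list had 17 genes called higher in blood of intact mice and a median log2 fold change of 3.91, and the red pulp list had 7 called lower and a median of -2.53. The summed level of the peritoneal list was 2309, 944 and 1397 CPM in intact blood and 206, 224 and 120.3 CPM in intact spleen. Prg4 stood at 508, 146 and 285 CPM in intact blood and 1.77, 1.94 and 1.19 CPM in intact spleen. The group of chemokine ligands had 7 genes called higher in intact mice and a median of 0.77, beside 17 called and 2.76 after resection. The median of the peritoneal list after resection was 5.71. The interaction, described next, was called for 0 genes of either list, and whether the lists differed between the states was not tested.

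The difference of the tissue effects was tested gene by gene as an interaction, the log2 fold change after resection minus that in intact mice. It was called for 57 features (0.283%), of which 44 were positive and 13 negative, while 3484 had an unadjusted p under 0.05. Slpi is an example. It stood at 105, 54.0 and 73.6 CPM in intact blood and 94.4, 106 and 124 CPM in intact spleen, a log2 fold change of -0.48 that became 2.83 after resection (interaction 3.30, SE 0.33, adjusted p = 0.0136). Clec10a had a log2 fold change of 1.03 in intact mice (interaction 3.54, SE 0.41, adjusted p = 0.0215). With the replicate block the interaction of Slpi was not called. That of Clec10a was not called without intact splenic library 2, blood library 2 or intact blood library 2.

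The number of interactions was the least stable count. It was 7 with the replicate block and 1167 in DESeq2. It was 8, 13 and 93 without splenic library 1, 2 or 3, 5 and 17 without blood library 2 or 3, 11, 5 and 7 without intact splenic library 1, 2 or 3, and 11 without intact blood library 2. The interactions of 4 of the peritoneal macrophage genes described above were positive and not called, at 4.80 for Alox15, 3.08 for C4b, 2.08 for Fgfr1 and 2.16 for Itga6, with adjusted p-values of 0.0523, 0.177, 0.0738 and 0.0517.

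**Figure D5:**
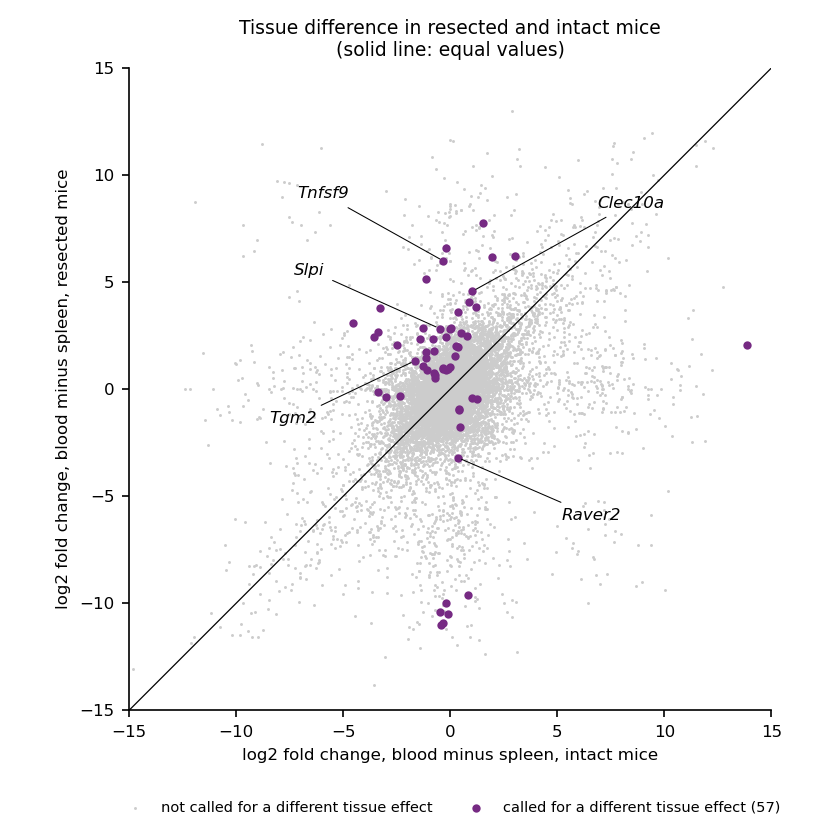
Log2 fold change, blood minus spleen, after resection against the same in intact mice for the 20135 features, 1 point a feature. The line marks equal values, and the 57 features called for a different tissue effect are purple, 44 of them above the line and 13 below it.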

How the data were processed

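Values are the estimated counts that the authors deposited, in 1 table for each library, made per the labels from strand-specific mRNA libraries and per the submitters' processing notes with STAR and assembly GRCm39. The counting tool, the annotation and its strand setting are not given in the sources used here. Entries named by a RefSeq accession were summed per symbol (25340 of 40274 matched), transcripts without a gene name (1.75% to 4.33% of counts) were left out, and sums were rounded. edgeR 4.0.16 in R 4.3.3 fitted 4 groups of 3 libraries (filterByExpr, TMM factors, robust glmQLFit, quasi-likelihood F test). A floor is 3 counts, or 0.0655 to 0.102 CPM, and floors cover counting error only. Where libraries of 1 tissue lay at or under it, bounds used the floor of that tissue. The fit was tested on simulated data.

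Members and lists were chosen with earlier results of these data known. The genes named are the 4 given with the comparison, Csf1r, receptors the study names, per direction the 12 of smallest p-value (at least 10 CPM, no overlap), the 3 called of smallest p-value per list and direction (for cell types also the 2 most abundant), and the 5 per direction for the interaction. Others are marked as chosen after their values were seen, and some genes are not reported here.

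Deviations of libraries with the same replicate number from their group means, in blood and spleen after resection, correlated across genes at 0.11, 0.25 and 0.36, all above 0.1, the limit set for pairing. Libraries with different numbers correlated at -0.36 to 0.21, and blood library 1 was closer to splenic library 2 (0.21) than to splenic library 1 (0.11). The labels do not say that a number marks the same mice. Reported calls come from the fit without a block, and the replicate block was an alternative. No 2 libraries of a group agreed within sampling noise.

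Alternatives were DESeq2 1.42.0, RLE factors, haemoglobin genes left out, other filters, no fold limit, entries as deposited, the 6 libraries alone, a replicate block and each library left out.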

Additional observations from a re-analysis of the deposited data

Results flagged for a closer look

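Among the genes named for the interaction, or named elsewhere and called for it, 13 had a tissue difference after resection that differed from that in intact mice in the test of the difference itself. Values are the log2 fold change, blood minus spleen, after resection minus that in intact mice.

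The interaction was positive for 8 of them. Tnfsf9, the ligand of the costimulatory receptor 4-1BB, had 6.30, and stood at 121, 176 and 89.3 CPM in blood and 1.96, 0.917 and 3.22 CPM in spleen after resection against 1.10, 1.59 and 1.18 CPM and 0.800, 1.36 and 2.66 CPM in intact mice. Clec10a had 3.54, Slpi 3.30 and Rarb 3.18. Tgm2, a transglutaminase, had 2.97, C1ra 2.64, Plod3 2.12 and Glmp, a lysosomal membrane protein, 1.13. Glmp was called between the tissues in neither state, at -0.21 in intact mice and 0.92 after resection, under the fold limit.

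It was negative for 5 genes. Raver2, an RNA-binding protein, had -3.55, and stood at 3.78, 2.58 and 2.11 CPM in blood and 23.2, 18.5 and 36.0 CPM in spleen after resection against 6.77, 5.94 and 4.33 CPM and 3.20, 5.47 and 4.64 CPM in intact mice. Hid1 had -2.25, Fam78a -1.69, Frat2 -1.40 and Ddb2, a protein of DNA repair, -1.39. Fam78a and Frat2 were called higher in blood of intact mice (log2 fold changes 1.24 and 1.01). After resection they were not called (-0.45 and -0.40). Ddb2 was called in neither state, at 0.40 in intact mice and -0.99 after resection.

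Few of these calls were stable. Of 19 alternatives, the call was lost in 1 for Slpi (the replicate block), 3 for Clec10a, 5 for Tnfsf9, 7 for Glmp, 8 for Plod3 and Raver2, 9 for C1ra and Tgm2, 10 for Ddb2, 12 for Fam78a and Hid1, 13 for Rarb and 15 for Frat2.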

How the results depend on the processing

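With any 1 of the 12 libraries left out, 1450 to 3625 features were called, 849 to 1814 of them higher and 601 to 1811 lower in blood, and 5 to 93 had a called interaction. The lowest total came without splenic library 2 and the highest without intact blood library 3. That library stood apart from the others of its group. Proliferation genes summed to 308, 274 and 2749 CPM in intact blood and T-cell genes to 1956, 1827 and 4698 CPM. Its group shares in the estimate of the spread, the comparison in intact mice and every interaction. Where leaving out a library leaves 2 in a group, they are assumed to vary like the other groups. The number lower in blood was 922 with no filter on low counts and 2130 with no limit on the fold change, and the number higher was 1990 in DESeq2. Interactions numbered 22 with no filter, 88 with at least 10 counts in every library of a group and 1167 in DESeq2. With the replicate block, which pairs blood and spleen by number, 2102 features were called, and interactions fell to 7. The cause of these differences was not tested.

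Of 188 named genes, 166 were called, and 106 of these kept their call in all 20 alternatives. The other 60 lost it in at least 1, which for 59 was a fit without 1 library, and 22 lost it with the replicate block. DESeq2 lost 0 of the 166 calls, and 0 called genes changed direction. Of the 22 not called, 4 changed sign with 1 library left out. Gata2 ran from -0.48 to 0.14, Itgal from -0.20 to 0.068, S100a8 from -0.79 to 1.24 and S100a9 from -0.86 to 0.76, and S100a9 was -0.15 with the replicate block. Depth limits values near the floor of 3 counts, and 3 libraries a group limit the rest.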
